A study of Homo sapiens with 4 samples.

Results

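The miRNAs hsa-miR-192, hsa-miR-194 and hsa-miR-215 were followed across the hepatoma cell lines Hep3B and Huh7 and the hepatic cancer stem cells (HCSCs) derived from each line, Hep3B-C and Huh7-C. They were taken by name as a family, as 3 of the 1733 miRNAs listed in every library, with earlier results of these data known. Total RNA of each of the 4 cell populations gave 1 small RNA library, so that no condition had a replicate. Hep3B and Huh7 are labelled hepatoma cell lines (HCC cells) without treatment. Hep3B-C and Huh7-C are labelled hepatic cancer stem cells and stem-like cells, and each is a single derived line, enriched in culture from its own parent. Hep3B has lost the tumor suppressor p53, whereas Huh7 carries a mutated form of it.

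MiRNAs are short RNAs that are cut from hairpin precursors and repress mRNAs that pair with their seed, the bases 2 to 8 of the mature strand. The miR-192 family is abundant in liver, intestine and kidney epithelium. P53 is known to raise its members, and they restrain the cell cycle and epithelial-mesenchymal transition in several tissues. Its precursors lie in 2 paralogous clusters, each with a copy of the miR-194 hairpin next to the hairpin of either miR-192 or miR-215.

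The mature strands are shown because their likeness decides which members can be told apart in the counts. They are from RefSeq (GRCh38.p14), are written 5′ to 3′, and have the seed in capitals. The rows of the files were matched to the RefSeq names hsa-miR-192-5p, hsa-miR-215-5p and hsa-miR-194-5p, and the rows hsa-miR-192* and hsa-miR-194* to the strands named 3p.
hsa-miR-192: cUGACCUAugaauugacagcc
hsa-miR-215: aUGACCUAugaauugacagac
hsa-miR-194: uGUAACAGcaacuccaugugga
hsa-miR-192*: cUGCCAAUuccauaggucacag
hsa-miR-194*: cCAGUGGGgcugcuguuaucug
Hsa-miR-192 and hsa-miR-215 share the seed UGACCUA and 19 of their 21 bases. The 2 differences are C1A and C20A, with the base of hsa-miR-192 first and positions counted from 1 at the 5′ end. Among the 2370 mature miRNAs of the RefSeq table these 2 alone had this seed. The seed of hsa-miR-194, GUAACAG, was found in no other mature miRNA of the table.

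The 4 hairpins are shown because their arms tell the clusters apart. Capitals mark the mature arms that RefSeq annotates, and all 4 lie on the minus strand.
MIR192: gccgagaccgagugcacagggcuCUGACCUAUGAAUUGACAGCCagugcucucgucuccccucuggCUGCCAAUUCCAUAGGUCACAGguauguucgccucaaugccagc
MIR194-2: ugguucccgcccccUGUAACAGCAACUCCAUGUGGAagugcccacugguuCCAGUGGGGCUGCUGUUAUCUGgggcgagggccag
MIR215: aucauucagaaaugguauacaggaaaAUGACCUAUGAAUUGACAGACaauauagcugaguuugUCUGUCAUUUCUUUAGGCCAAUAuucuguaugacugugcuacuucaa
MIR194-1: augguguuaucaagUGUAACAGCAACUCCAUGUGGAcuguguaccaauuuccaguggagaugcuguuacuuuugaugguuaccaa
MIR192 (chr11:64891137-64891246) and MIR194-2 (chr11:64891355-64891439) are 108 bases apart, and GENCODE release 29 places both within exons of the non-coding host gene MIR194-2HG. MIR215 (chr1:220117853-220117962) and MIR194-1 (chr1:220118157-220118241) are 194 bases apart, in an intron of IARS2 and on the strand opposite to it. Both miR-194 hairpins give the same mature strand, so the counts of hsa-miR-194 cannot be divided between chromosomes 11 and 1. Hsa-miR-192, hsa-miR-192* and hsa-miR-194* are annotated on chromosome 11 alone, and hsa-miR-215 on chromosome 1 alone. The files list hsa-miR-192* and hsa-miR-194* but no second arm of miR-215.

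The libraries held between 1739278 (Hep3B) and 5741567 (Huh7) miRNA counts. Their share of all reads was 10.4% for Hep3B, 35.2% for Hep3B-C, 54.1% for Huh7 and 37.8% for Huh7-C. Levels are given as TPM, the count per 1000000 total reads of a library, and also as CPM, the count per 1000000 miRNA counts, because the miRNA share of the reads differed so widely. The floor of 3 counts was between 0.179 and 0.282 TPM, and no member came near it. Hepatocyte markers (hsa-miR-122 and hsa-miR-122*) summed to 228 CPM for Hep3B, where hsa-miR-122* had 0 counts, 27619 CPM for Hep3B-C, 85294 CPM for Huh7 and 35812 CPM for Huh7-C. By this marker list Hep3B alone was low, although it carries a hepatoma label. Summed markers of other cell types ranged from 0.184 to 139 CPM for blood, 7.91 to 341 for mesenchymal cells, 294 to 504 for endothelium, and 6.63 to 34.4 for muscle. For the neural list these sums were 90.3 CPM (Hep3B), 157 (Hep3B-C), 1715 (Huh7) and 2821 (Huh7-C). Every one of these other lists but the endothelial one had at least 1 marker at 0 counts in some library. These are bulk libraries, in which fewer cells of a type and less RNA per cell cannot be told apart.

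Hsa-miR-192 was among the most abundant miRNAs of all 4 libraries. Hep3B had 179088 counts of it (10671 TPM), Hep3B-C 386372 (25023 TPM), Huh7 706923 (66551 TPM) and Huh7-C 469706 (43837 TPM). Its rank by count was 2 of 674 detected miRNAs for Hep3B, 4 of 773 for Hep3B-C, 2 of 712 for Huh7 and 3 of 664 for Huh7-C. Its share of the miRNA counts was 10.3% in Hep3B (95% Clopper-Pearson interval 10.25% to 10.34%), 7.12% in Hep3B-C (7.09% to 7.14%), 12.3% in Huh7 (12.29% to 12.34%) and 11.6% in Huh7-C (11.58% to 11.64%). Intervals cover counting error only. The level of hsa-miR-192 was thus lowest in Hep3B as TPM and lowest in Hep3B-C as a share of miRNA counts, and highest in Huh7 on both scales.

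Hsa-miR-194 came from the same clusters but was far less abundant. Hep3B had 5074 counts of it (302 TPM), Hep3B-C 11629 (753 TPM), Huh7 31949 (3008 TPM) and Huh7-C 24347 (2272 TPM). In the same order these levels were 2917, 2142, 5565 and 6019 CPM. Both Huh7 libraries lay above both Hep3B libraries on either scale. The order of Huh7 and Huh7-C turned with the scale, as did that of Hep3B and Hep3B-C.

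Hsa-miR-215 had the widest range. Hep3B had 1517 counts of it (90.4 TPM), Hep3B-C 15756 (1020 TPM), Huh7 325 (30.6 TPM) and Huh7-C 923 (86.1 TPM). As CPM it reached 872 for Hep3B, 2902 for Hep3B-C, 56.6 for Huh7 and 228 for Huh7-C. Here the Hep3B libraries lay above the Huh7 libraries, the reverse of hsa-miR-192 and hsa-miR-194. Hep3B-C was the only library with more hsa-miR-215 than hsa-miR-194. As TPM, Hep3B and Huh7-C were neighbours that counting error did not separate, with Huh7-C at a log2 difference of -0.069 (95% interval -0.19 to 0.050).

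**Figure D1:**
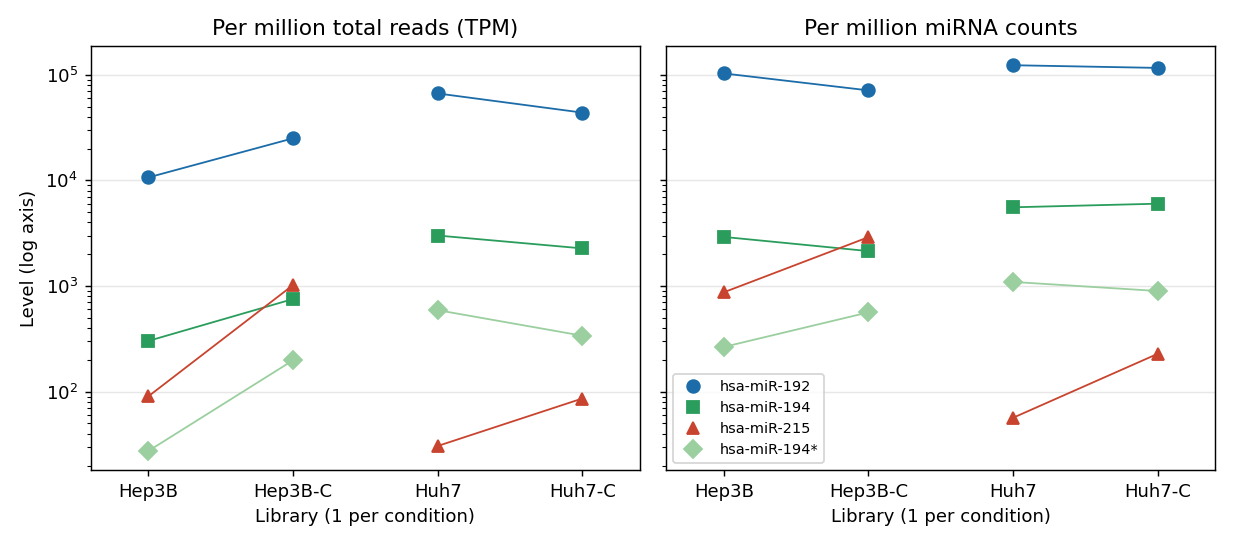
Level of hsa-miR-192 (circles), hsa-miR-194 (squares), hsa-miR-215 (triangles) and hsa-miR-194* (diamonds) in each of the 4 libraries, as TPM (left) and CPM (right), on log axes. Lines join the libraries of a pair, and hsa-miR-215 is the only one of the 3 members whose line goes up in both pairs on both scales.

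The first question was whether the members differed between HCSCs and the HCC cells they came from. Hsa-miR-215 was up-regulated in both pairs, whereas hsa-miR-192 and hsa-miR-194 were up-regulated in the Hep3B pair only as TPM and were not called in the Huh7 pair. Each pair was tested by the 2-sided exact Poisson test over all detected miRNAs, and a miRNA was called at a log2 fold-change of at least 1 in size and an adjusted p of at most 0.01 (Benjamini-Hochberg). The test compares 2 libraries and not the conditions, since it holds no variation between cultures. Over the 834 miRNAs tested in the Hep3B pair, the calls came to 33% up-regulated and 2.52% down-regulated. Over the 772 of the Huh7 pair they came to 2.98% up-regulated and 17.1% down-regulated.

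Hsa-miR-215 was 11.3-fold higher in Hep3B-C than in Hep3B, a log2 fold-change of 3.50 (95% interval from the exact binomial distribution 3.42 to 3.57). The increase from Huh7 to Huh7-C was 2.82-fold, or 1.49 on the log2 scale (1.31 to 1.68, adjusted p = 1.63e-64 by the exact Poisson test). Over all miRNAs that reached 10 counts, the median of the same quantity was 1.42 for the Hep3B pair (475 miRNAs) and -0.66 for the Huh7 pair (431 miRNAs). Relative to these medians hsa-miR-215 stood 2.07 higher for the Hep3B pair and 2.16 higher for the Huh7 pair, above 90.1% and 95.8% of the miRNAs. Its log2 fold-changes were 1.73 and 2.01 on the scale of total miRNA counts, 2.35 and 2.00 with TMM sizes, and 2.32 and 2.07 with DESeq2 size factors, and all 6 were called. A biological coefficient of variation of 0.4 was also assumed, with total reads as library sizes. The calls of hsa-miR-192 and hsa-miR-194 in the Hep3B pair and that of hsa-miR-215 in the Huh7 pair were then lost (adjusted p = 0.406, 0.364 and 0.556 from edgeR's exact test). With total miRNA counts, TMM sizes and DESeq2 size factors, the background of up-regulated calls in the Hep3B pair was 5.28%, 11.6% and 11%, and that of down-regulated calls 13.4%, 6.47% and 7.07%. For the Huh7 pair it was 6.99%, 6.87% and 7.38% up-regulated and 9.59%, 9.59% and 9.2% down-regulated. The summed neural markers were also higher in both HCSC libraries than in their parents. Each library had 1 of the 3 neural markers at 0 counts, and a sum does not show whether each marker rose. The part of these markers in the result for hsa-miR-215 was not tested.

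Hsa-miR-192 had log2 fold-changes of TPM of 1.23 (interval 1.22 to 1.24) for the Hep3B pair and -0.60 (-0.61 to -0.60) for the Huh7 pair. Those of hsa-miR-194 were 1.32 (1.27 to 1.36) and -0.40 (-0.43 to -0.38). Both lay close to the median of all miRNAs. In the Hep3B pair hsa-miR-192 stood at -0.19 and hsa-miR-194 at -0.11 relative to that median, and in the Huh7 pair they stood at 0.063 and 0.26. On the scale of total miRNA counts the changes of hsa-miR-192 were -0.53 and -0.085, and those of hsa-miR-194 were -0.45 and 0.11, none of them called. The direction of hsa-miR-192 in the Hep3B pair and of hsa-miR-194 in both pairs therefore depended on the library size used.

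**Figure D2:**
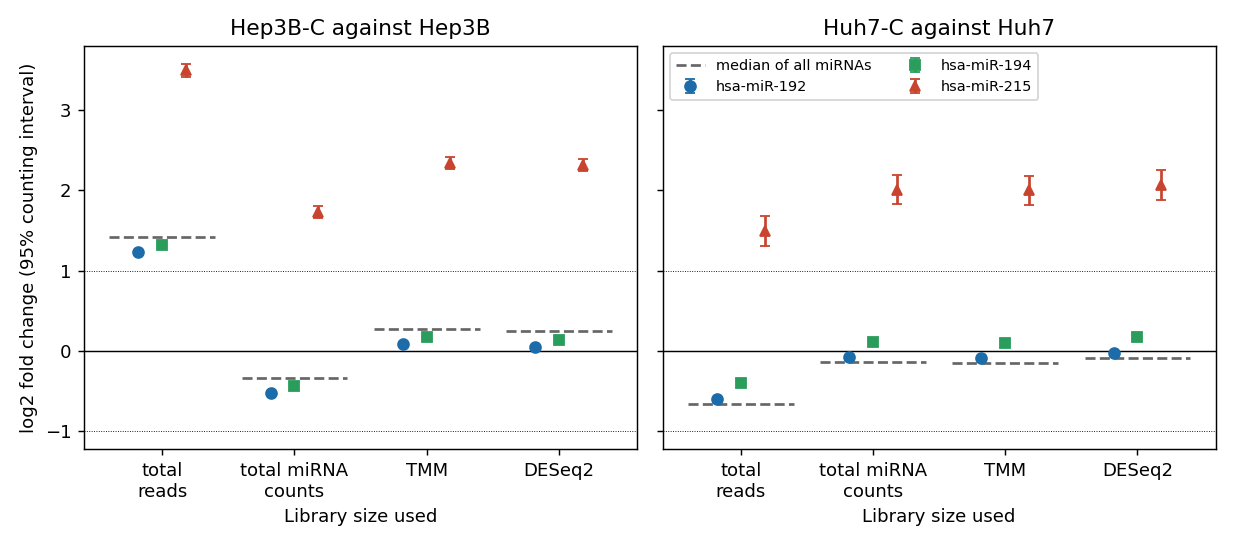
Log2 fold-change of the 3 members in each pair (points, with 95% counting intervals) under each of 4 library sizes, with the median of all miRNAs as a dashed line and dotted lines at a log2 fold-change of 1 in either direction. Hsa-miR-215 lies above 1 under each library size in both pairs, while hsa-miR-192 and hsa-miR-194 stay near the median of all miRNAs.

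**Figure D3:**
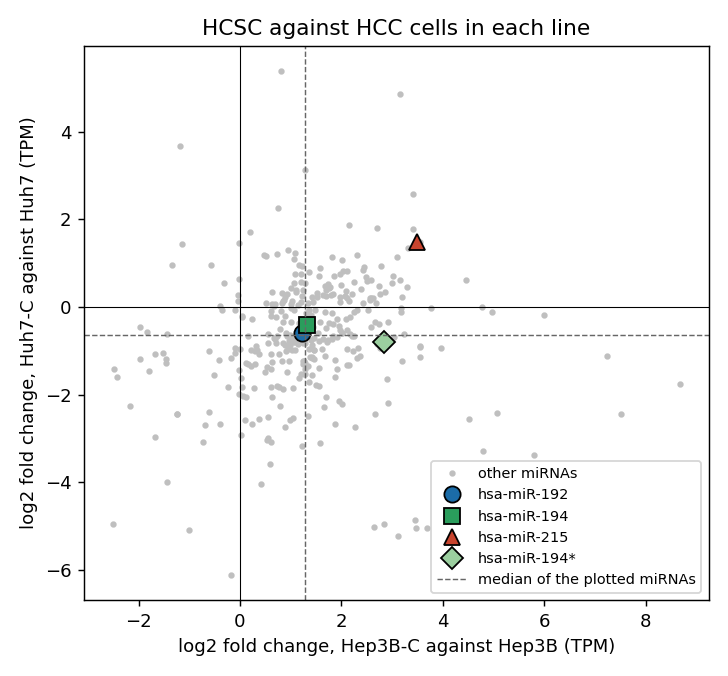
Log2 fold-change of TPM (0.5 counts added) in the Hep3B pair (horizontal) against the Huh7 pair (vertical) for 359 miRNAs with at least 10 counts in a library of each pair, with dashed lines at the medians of the plotted miRNAs. Hsa-miR-192 and hsa-miR-194 lie next to the crossing of the medians, and hsa-miR-215 lies to the upper right of it.

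When both lines were fitted together, with the line of origin as a block, edgeR's quasi-likelihood test made 0 calls in either direction among 443 miRNAs (0% each way) at an adjusted threshold of 0.05. At an unadjusted p of 0.05 there were 18 higher and 13 lower, and DESeq2 called 4 and 1 after adjustment. The edgeR and DESeq2 fits over both lines are the only tests in which the spread between libraries enters, each with 1 residual degree of freedom when blocked. Hsa-miR-215 had a log2 fold-change of 2.17 and an adjusted p of 0.544 from edgeR (unadjusted 0.0178), and was higher in the HCSCs of 2 of 2 lines. With TMM sizes 61.5% of 475 miRNAs were higher in Hep3B-C than in Hep3B, and 43.6% of 431 in Huh7-C than in Huh7. The share of miRNAs higher in both lines was not determined. DESeq2 gave hsa-miR-215 a log2 fold-change of 2.22 with an adjusted p of 0.0130. Without the Hep3B-C library, and then without the block, its log2 fold-change was -0.10, with Huh7-C alone set against both HCC lines. Hsa-miR-192 had a log2 fold-change of -0.0095 (edgeR adjusted p = 0.994) and hsa-miR-194 one of 0.13 (edgeR adjusted p = 0.913).

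A ratio between 2 miRNAs of one library needs no library size, so the members were next compared with each other. Both ratios that hold hsa-miR-215 were higher in the HCSCs, and the ratio of hsa-miR-192 to hsa-miR-194 was slightly lower. Hsa-miR-215 stood at 0.847% of the hsa-miR-192 count in Hep3B and at 4.08% in Hep3B-C, a 4.81-fold increase (log2 2.27, interval 2.19 to 2.34). It stood at 0.0460% in Huh7 and 0.197% in Huh7-C, a 4.27-fold increase (log2 2.10, interval 1.91 to 2.28, adjusted p = 8.06e-131 by Fisher's exact test over 12 ratio tests). The intervals of these changes overlapped, and the difference between them was not tested. How often reads of hsa-miR-192 were assigned to hsa-miR-215 was not tested.

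The ratio of hsa-miR-215 to hsa-miR-194 went from 0.299 in Hep3B to 1.35 in Hep3B-C, and from 0.0102 in Huh7 to 0.0379 in Huh7-C. These were changes of 4.53-fold and 3.73-fold (adjusted p = 1.15e-104 by Fisher's exact test in the Huh7 pair). For each count of hsa-miR-194, Hep3B had 35.3 counts of hsa-miR-192, Hep3B-C 33.2, Huh7 22.1 and Huh7-C 19.3. This ratio fell by 0.087 on the log2 scale in the Hep3B pair (interval -0.14 to -0.039, adjusted p = 3.92e-04 by Fisher's exact test) and by 0.20 in the Huh7 pair (-0.22 to -0.17, adjusted p = 2.26e-55 by the same exact test). Small as they are, both changes were larger than the counting error, and variation between cultures was not measured.

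**Figure D4:**
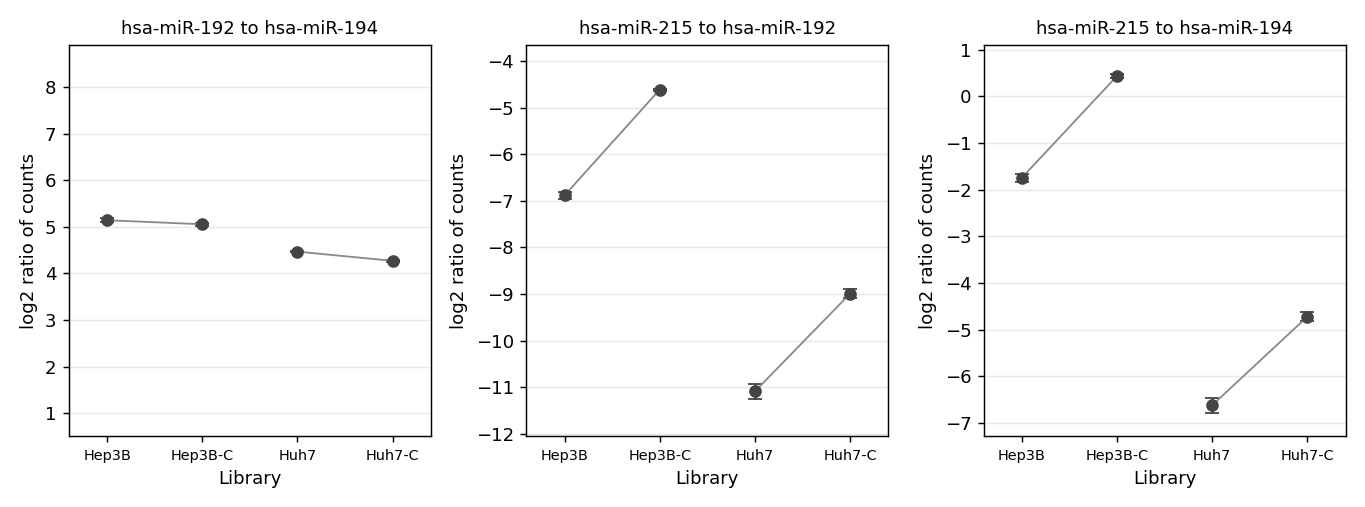
Log2 ratio of the counts of one member to those of another in each library, with 95% counting intervals, on vertical axes of equal span. Lines join the libraries of a pair, and the ratios of hsa-miR-215 to hsa-miR-192 and to hsa-miR-194 rise in both pairs while that of hsa-miR-192 to hsa-miR-194 stays almost level.

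The parent lines and the HCSC lines were also compared with each other. Between Huh7 and Hep3B, 32.4% of 828 miRNAs were called higher in Huh7 and 9.18% lower. Hsa-miR-192 was 6.24-fold and hsa-miR-194 9.95-fold higher in Huh7 as TPM, with log2 differences of 2.64 (interval 2.63 to 2.65) and 3.31 (3.27 to 3.36). Hsa-miR-215 was lower in Huh7, with a log2 difference of -1.56 (-1.74 to -1.39, adjusted p = 3.18e-85 by the exact Poisson test). The median over 476 miRNAs was 1.59, and on the scale of total miRNA counts the differences were 0.26, 0.93 and -3.95, of which only that of hsa-miR-215 was called (background 10% higher and 30.1% lower in Huh7). With TMM sizes (17.4% and 17.9%) they were 1.41, 2.09 and -2.79, and with DESeq2 size factors (15.6% and 19.6%) 1.19, 1.87 and -3.01, all called.

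Between Huh7-C and Hep3B-C, 13.6% of 868 miRNAs were called higher in Huh7-C and 23% lower. Hsa-miR-194 was 3.02-fold higher in Huh7-C (log2 1.59, interval 1.56 to 1.63) and hsa-miR-215 lower, with a log2 difference of -3.57 (-3.66 to -3.47). The log2 difference of hsa-miR-192 was 0.81 (0.80 to 0.82), under the threshold. It passed the threshold with TMM sizes, at 1.24 (background 16.9% higher and 19.2% lower in Huh7-C), and with DESeq2 size factors, at 1.12 (16.1% and 20.5%), but not on the scale of total miRNA counts, at 0.71 (12.4% and 24.4%). Relative to hsa-miR-192, hsa-miR-215 was 18.4-fold lower in Huh7 than in Hep3B and 20.8-fold lower in Huh7-C than in Hep3B-C, a contrast that no library size can alter. Hsa-miR-215 made up 3.92% of the counts with the shared seed in Hep3B-C (Clopper-Pearson interval 3.86% to 3.98%) and at most 0.840% in the other libraries.

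The other arms, hsa-miR-192* and hsa-miR-194*, are the strands of the chromosome 11 hairpins that are usually degraded. Hep3B had 461 counts of hsa-miR-194*, Hep3B-C 3059, Huh7 6280 and Huh7-C 3630. Its log2 fold-change passed the threshold in the Hep3B pair, at 2.85 (interval 2.71 to 2.99), but not in the Huh7 pair, at -0.80 (-0.86 to -0.74). With total miRNA counts as library sizes these values were 1.09 and -0.29, the first still called. Of the counts of both miR-194 arms, hsa-miR-194* made up 8.33% in Hep3B (Clopper-Pearson interval 7.61% to 9.09%) and 20.8% in Hep3B-C (20.2% to 21.5%). It made up 16.4% in Huh7 (16.1% to 16.8%) and 13.0% in Huh7-C (12.6% to 13.4%). The share thus moved in opposite directions in the pairs, and the intervals of no 2 libraries overlapped. Since hsa-miR-194 is also made on chromosome 1, a change of this share does not tell a change between the arms from one between the hairpins.

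Counts of hsa-miR-192* were few, namely 5 (Hep3B), 19 (Hep3B-C), 116 (Huh7) and 26 (Huh7-C). It never exceeded 0.0164% of both miR-192 arms. The Hep3B pair differed by 2.05 on the log2 scale (interval 0.58 to 3.82, adjusted p = 8.28e-03 by the exact Poisson test) and the Huh7 pair -2.17 (-2.84 to -1.55, adjusted p = 2.29e-14 by the same exact test). Both passed the threshold, and the first no longer did with total miRNA counts as library sizes, at 0.28.

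**Figure D5:**
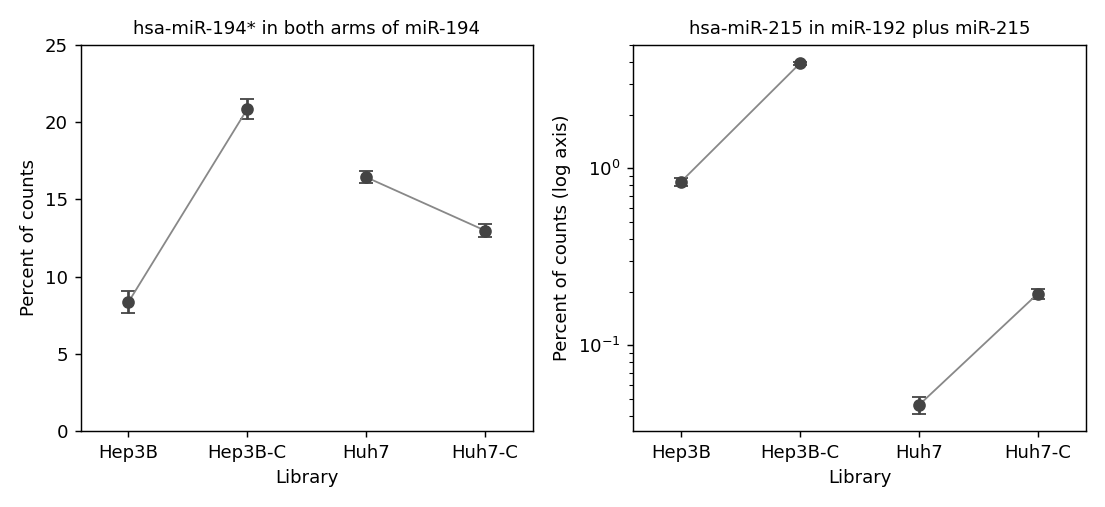
Share of hsa-miR-194* in the counts of both miR-194 arms (left) and share of hsa-miR-215 in the counts of hsa-miR-192 and hsa-miR-215 together (right, log axis), in each library with 95% Clopper-Pearson intervals. The share of hsa-miR-194* rises from 8.33% to 20.8% in the Hep3B pair and falls from 16.4% to 13.0% in the Huh7 pair, while the share of hsa-miR-215 rises in both.

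Profiles most like those of the members were sought among the 130 miRNAs with at least 100 counts in every library, by the root mean square difference of log2 TPM after centring each miRNA on its mean over the 4 libraries. Nearest to hsa-miR-192 were hsa-miR-1307 (0.16), hsa-miR-185 (0.18) and hsa-miR-361-5p (0.22), against a median of 0.96 over all others. Nearest to hsa-miR-194 were hsa-miR-191 (0.16), hsa-miR-185 (0.26) and hsa-miR-425 (0.28), against a median of 1.09. Hsa-miR-192 and hsa-miR-194 were 0.37 apart. Hsa-miR-215 was 2.41 from hsa-miR-192 and 2.71 from hsa-miR-194, farther than its median of 1.99. Nearest to it were hsa-miR-1269b (0.45), hsa-miR-375 (0.56) and hsa-miR-200c (0.61). As for hsa-miR-215, the count of hsa-miR-375, a miRNA of endocrine and gut epithelial cells, was higher in each HCSC library than in its parent, with 31379 against 3452 for Hep3B-C and 4060 against 1573 for Huh7-C.

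Other miRNAs of liver, of epithelium and of the p53 response were read as lists beside the members. Of 5 liver miRNAs 1 had no counts in any library and 4 were tested. For Hep3B-C 3 of these were called higher and 0 lower than in Hep3B, and for Huh7-C 0 and 2. Medians were taken over the liver miRNAs that reached 10 counts in a library of the pair, 4 for the Hep3B pair and 3 for the Huh7 pair. The median log2 fold-change was 4.78 (3.49 with a library at 0 counts set to the floor of 3) for the Hep3B pair and -1.77 for the Huh7 pair, beside 1.42 and -0.66 over all miRNAs. Hsa-miR-122, the main hepatocyte miRNA, had 397 counts in Hep3B and 149892 in Hep3B-C, but 489443 in Huh7 and 144814 in Huh7-C. Hsa-miR-148a, which is abundant in hepatocytes, had log2 fold-changes of TPM of 2.06, which was called, and 0.24, which was not. On the scale of total miRNA counts these were 0.30 and 0.76, neither of them called. Hsa-miR-885-5p had 186 counts in Hep3B and 159 in Hep3B-C, and at most 2 in the Huh7 libraries. It was called lower in Hep3B-C on the scale of total miRNA counts, at -1.87, where the liver list had 2 called higher and 1 lower for Hep3B-C, and 0 and 2 for Huh7-C. These counts were the same with TMM sizes and DESeq2 size factors.

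Of 8 epithelial miRNAs, 4 of 8 tested were called higher in Hep3B-C and 1 of 7 tested was called higher in Huh7-C, with 0 called lower in either. Over the 6 and 4 of them that reached 10 counts in a library of the pair, the median log2 fold-changes were 2.33 and -0.19. Hsa-miR-375 was called in both pairs, with log2 fold-changes of 3.30 and 1.36. Hsa-miR-200c, which restrains epithelial-mesenchymal transition, had 3.19 for Hep3B-C against Hep3B, but 0.23, not called, for Huh7-C against Huh7. Its relatives hsa-miR-200a and hsa-miR-200b had at most 2 counts in either Huh7 library, against 1373 and 3850 in Hep3B. In the Hep3B pair their log2 fold-changes of TPM were 0.95, not called, and 1.47, called. With total miRNA counts as library sizes these were -0.82 and -0.29, neither called, while that of hsa-miR-200c was 1.43, called. On the scale of total miRNA counts the calls were 3 higher and 1 lower for Hep3B-C, and 1 and 0 for Huh7-C.

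Of 7 p53-responsive miRNAs, 5 were tested in each pair. For Hep3B-C 2 were called higher and 0 lower, for Huh7-C 0 and 3. Over the 4 and 5 of them that reached 10 counts in a library of the pair, the median log2 fold-changes were 2.49 and -2.18. Hsa-miR-34a, a direct p53 target, had 154 counts in Hep3B and 214 in Hep3B-C. This was a log2 fold-change of 0.59 as TPM, not called, and of -1.17 on the scale of total miRNA counts, called lower. It fell from 292 in Huh7 to 24 in Huh7-C (log2 fold-change -3.62, adjusted p = 1.85e-59 by the exact Poisson test). Hsa-miR-34c-5p, of the same family, had 1 count in Hep3B and 10 in Hep3B-C, and fell from 9388 in Huh7 to 2086 in Huh7-C, a log2 fold-change of -2.18. The third to fall in Huh7-C was hsa-miR-143, from 33 to 13 counts (log2 fold-change -1.36). In the Hep3B pair hsa-miR-143 was called higher, with 427 counts in Hep3B and 1706 in Hep3B-C (2.12). With total miRNA counts as library sizes it was called in neither pair, at 0.36 for the Hep3B pair and -0.84 for the Huh7 pair. Hsa-miR-107 was called lower in neither pair, with 99 counts in Hep3B and 666 in Hep3B-C (log2 fold-change 2.87, called) and 161 in Huh7 and 206 in Huh7-C (0.34, not called). On the scale of total miRNA counts the list had 1 called higher and 1 lower for Hep3B-C, and 0 and 2 for Huh7-C. These lists are descriptions, beside the backgrounds of 33% and 2.52% called for the Hep3B pair and of 2.98% and 17.1% for the Huh7 pair.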

How the data were processed

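Small RNA libraries of 4 cell populations were sequenced by the authors on the Illumina platform. The authors deposited a raw count for each miRNA named in miRBase release 17. The aligner was SOAP and the genome NCBI Build 36, the minimum read length was 18 nt, and reads from other small RNA classes do not enter the counts. How reads matching several miRNAs were divided is not given in the sources used here. The files hold no positions, and all positions are of GRCh38.

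TPM used the study's total reads per library, which are not printed here. Pairs of libraries were compared by the exact Poisson test (Audic-Claverie, 2-sided, with the observed count in both tails), over miRNAs with at least 1 count. A TPM of 0 was set to 0.001. Medians used 0.5 added counts. Differences between pairs used the exact conditional test of the 4 counts, and ratios Fisher's exact test. EdgeR was fitted to miRNAs that reached 10 counts in 2 or more libraries, with TMM sizes and the line of origin, given by the labels, as a replicate block. As a check of this pairing, the libraries of a line deviated together from the mean of their cell state, with a Pearson r of 0.833 across 443 miRNAs, which are not independent. Alternatives were other library sizes, an assumed biological coefficient of variation of 0.4, a filter of 10 counts, both arms summed, DESeq2, no block and leaving out each library.

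The members and lists were chosen with earlier results of these data known. Named miRNAs were the members, their other arms, the 3 nearest profiles of each, those sharing a seed, and up to the 4 most abundant of each list. The tests were run on simulated data with less variation than the biological coefficient of variation that edgeR estimated here (0.546). How they perform at that variation was not tested. Software was Python 3.11.15 (numpy 2.4.6, scipy 1.17.1, pandas 2.3.3, matplotlib 3.10.9) and R 4.3.3 (edgeR 4.0.16, DESeq2 1.42.0).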

Additional observations from a re-analysis of the deposited data

Results flagged for a closer look

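All 3 members were flagged because their log2 fold-change differed between the pairs by the exact conditional test of the 4 counts. This test was run on no other miRNA, so the share of all miRNAs that would pass it is not known. The log2 fold-change of TPM in the Hep3B pair minus that in the Huh7 pair was 1.83 for hsa-miR-192 (95% interval 1.82 to 1.84), 1.72 for hsa-miR-194 (1.67 to 1.77) and 2.00 for hsa-miR-215 (1.80 to 2.20). The test holds counting noise only, with 1 library per condition. Over all miRNAs the median was 1.42 for the Hep3B pair and -0.66 for the Huh7 pair, and miRNAs made up 10.4% of the reads of Hep3B and between 35.2% and 54.1% of those of the other libraries. With total miRNA counts as library sizes all 3 differences had the opposite sign.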

How the results depend on the processing

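Of the changes of the members between libraries, those of hsa-miR-215 kept their direction under all 4 library sizes, as did that of hsa-miR-192 in the Huh7 pair, while that of hsa-miR-192 in the Hep3B pair and those of hsa-miR-194 in both pairs did not. On the scale of total miRNA counts, log2 fold-changes turned to -0.53 (hsa-miR-192) and -0.45 (hsa-miR-194) for the Hep3B pair, and to 0.11 (hsa-miR-194) for the Huh7 pair. With TMM sizes these were 0.078, 0.17 and 0.10, and with DESeq2 size factors 0.050, 0.14 and 0.17. Between Huh7 and Hep3B, total miRNA counts gave 0.26 for hsa-miR-192 and 0.93 for hsa-miR-194, under the threshold. Between Huh7-C and Hep3B-C, hsa-miR-192 passed it with TMM (1.24) and DESeq2 sizes (1.12). The difference between the pairs turned to -0.45, -0.56 and -0.28 for hsa-miR-192, hsa-miR-194 and hsa-miR-215 with total miRNA counts, and to -0.031 for hsa-miR-194 with DESeq2 sizes.

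An assumed biological coefficient of variation of 0.4 left the fold-changes as they were and ended the calls of hsa-miR-192 (1.23) and hsa-miR-194 (1.32) in the Hep3B pair, of hsa-miR-215 in the Huh7 pair (1.49), of hsa-miR-192 (2.64) and hsa-miR-215 (-1.56) between the parents, and of hsa-miR-194 (1.59) between the HCSC lines, with adjusted p from edgeR's exact test between 0.0149 and 0.556. The call of hsa-miR-215 in the Hep3B pair held, at its log2 fold-change of 3.50 with total reads as library sizes. The assumed variation was not combined with the other library sizes, under which this change was smaller. It was also below the common coefficient that edgeR estimated over both lines, 0.546.

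Counts over all miRNAs called up and down moved most. For the Hep3B pair they were 275 and 21, and 44 and 112 with total miRNA counts, 97 and 54 with TMM, 92 and 59 with DESeq2 sizes, and 25 and 0 with the assumed variation. For the Huh7 pair they were 23 and 132, then 54 and 74, 53 and 74, 57 and 71, and 5 and 10. For Huh7 against Hep3B they were 268 and 76, then 83 and 249, 144 and 148, 129 and 162, and 109 and 38. For Huh7-C against Hep3B-C they were 118 and 200, and 31 and 82 with the assumed variation.

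Over both lines, removing the replicate block changed no call, with log2 fold-changes of -0.047, 0.11 and 2.31 for hsa-miR-192, hsa-miR-194 and hsa-miR-215. DESeq2 called 4 up-regulated and 1 down-regulated, with 2.22 for hsa-miR-215 and 0.038 for hsa-miR-192. Total reads as library sizes gave 0.31 for hsa-miR-192, and no count filter -0.092 for hsa-miR-194. With each library left out, log2 fold-changes lay between -0.86 and 0.82 for hsa-miR-192, -1.29 and 1.501 for hsa-miR-194, and -0.10 and 4.44 for hsa-miR-215, the lowest without Hep3B-C. The direction turned for hsa-miR-192 without Hep3B-C (0.36) or Huh7, and for hsa-miR-194 without Hep3B (-0.59) or Huh7-C. These fits had no block, and 1 group then had a lone library, assumed to vary like the others. Summing both arms changed no direction or call of the 12 ratio results, but it changed some sizes. For the ratio of hsa-miR-192 to hsa-miR-194, the log2 change in the Hep3B pair was then -0.30 instead of -0.087. In the Huh7 pair it was -0.14 instead of -0.20. The filter of 10 counts changed no direction or call of the members between libraries. The cause of these changes was not tested. With 1 library per condition, depth limits hsa-miR-192* alone among the members and their other arms. In the lists it also limits others, such as hsa-miR-34c-5p in the Hep3B pair (1 and 10 counts) and hsa-miR-143 in the Huh7 pair (33 and 13 counts).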
